A study of Mus musculus with 2 samples.

Results

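The genes described here encode proteins that a maturing red cell needs for its membrane, its iron supply and its haem, together with a few erythroid regulators. They were chosen by name, 30 in all, and read through the probes whose RefSeq accession maps to those names. Probes for 29 of the 30 were matched, 36 probes among the 55664 present on both arrays and 29 genes among 20655 named. Ahsp, the alpha-globin chaperone, was not analysed here.

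The genes were measured in LSK cells, sorted for the absence of lineage markers and the presence of Sca-1 and c-Kit, a population that holds stem cells and multipotent progenitors. One group came from the bone marrow of wild type C57BL/6 mice at 8 weeks of age. The other came from wild type fetal liver at E14.5, for which no strain was used here, and neither group had undergone transplantation. Each group had 1 single-colour Agilent array, and the sources used here do not say whether animals were pooled. With 1 array per group, no difference below has a replicate check and no test across samples was possible. Tissue, age and slide differ together and cannot be told apart, and in RNA from bulk cells fewer cells of a type and less RNA per cell cannot be told apart either.

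A red cell membrane is held in shape by a skeleton of spectrin, which ankyrin and adducin link to the anion exchanger and to blood group proteins in the lipid layer. Haem is built by a chain of enzymes that starts in the mitochondrion with aminolevulinate synthase, passes through the cytosol and ends in the mitochondrion, where ferrochelatase inserts iron. Iron enters the cell bound to transferrin through the transferrin receptor and reaches the mitochondrion through the carrier mitoferrin. The erythroid-restricted genes among these are mostly switched on late, under GATA1 and KLF1, and the multipotent LSK compartment lies upstream of that stage. Others, such as Alas1 and Car2, are expressed more widely.

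Each level below is a processed signal on the log2 scale, with the array's own 75th percentile set to 0, and a level is compared only with the same probe on the other array. Differences are fetal liver minus bone marrow on that log2 scale, and ± gives the technical error, taken from the error estimate of the image software. A probe that was not well above background on 1 array gives a bound, written as at least N-fold, set against the dimmest signal that still counted as well above background there (12.4 for bone marrow, 9.82 for fetal liver). The arrays had 47.4% of probes (bone marrow) and 46.4% (fetal liver) well above background. Kit, which encodes c-Kit, stood level (0.01 ± 0.14), while the Sca-1 gene Ly6a had a 4.85-fold higher signal in bone marrow.

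Of the 29 genes, 20 were well above background on both arrays, 4 on fetal liver alone (Add2, Ank1, Cldn13 and Alas2) and 5 on neither (Trim10, Sptb, Epb42, Rhag and Kel). Fetal liver exceeded bone marrow by 2-fold or more for 2 of the 24 measured genes, Rhd and, by a bound close to 2-fold, Add2. Over all 13383 measured genes the share was 6.76%. Bone marrow exceeded fetal liver by as much for 4 of the 24, Car1, Tfr2, Slc25a37 and Fech, against 8.14% of all measured genes. The median difference was 0.10 over the 24 and 0.11 over all measured genes, so the group as a whole did not lie to one side. Differences pointed to fetal liver in 15 genes and to bone marrow in 9, and 11 were under 0.5 in size. Over all 13383 measured genes, 7738 pointed to fetal liver and 8154 were under 0.5 in size. At a 1.5-fold threshold the counts were 7 towards fetal liver, against 17.6% of all measured genes, and 5 towards bone marrow, against 14.9%. The 4 genes measured on fetal liver alone could enter only with a positive value.

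With the spike-in controls as the scale in place of the 75th percentile, every difference between measured signals fell by 0.34 and the median of all genes moved to -0.23. The 2-fold counts were then 1 and 5 among the members, with Car2 joining the bone marrow side (-1.02) and Add2 no longer counted. Over all genes 511 (3.82%) then passed 2-fold towards fetal liver and 1755 (13.1%) towards bone marrow, against 905 and 1090 under the main scaling. The sign of Ermap, Alas1, Ppox, Tfrc and Slc25a38 turned negative under that scaling, so no direction is given for these 5.

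**Figure D1:**
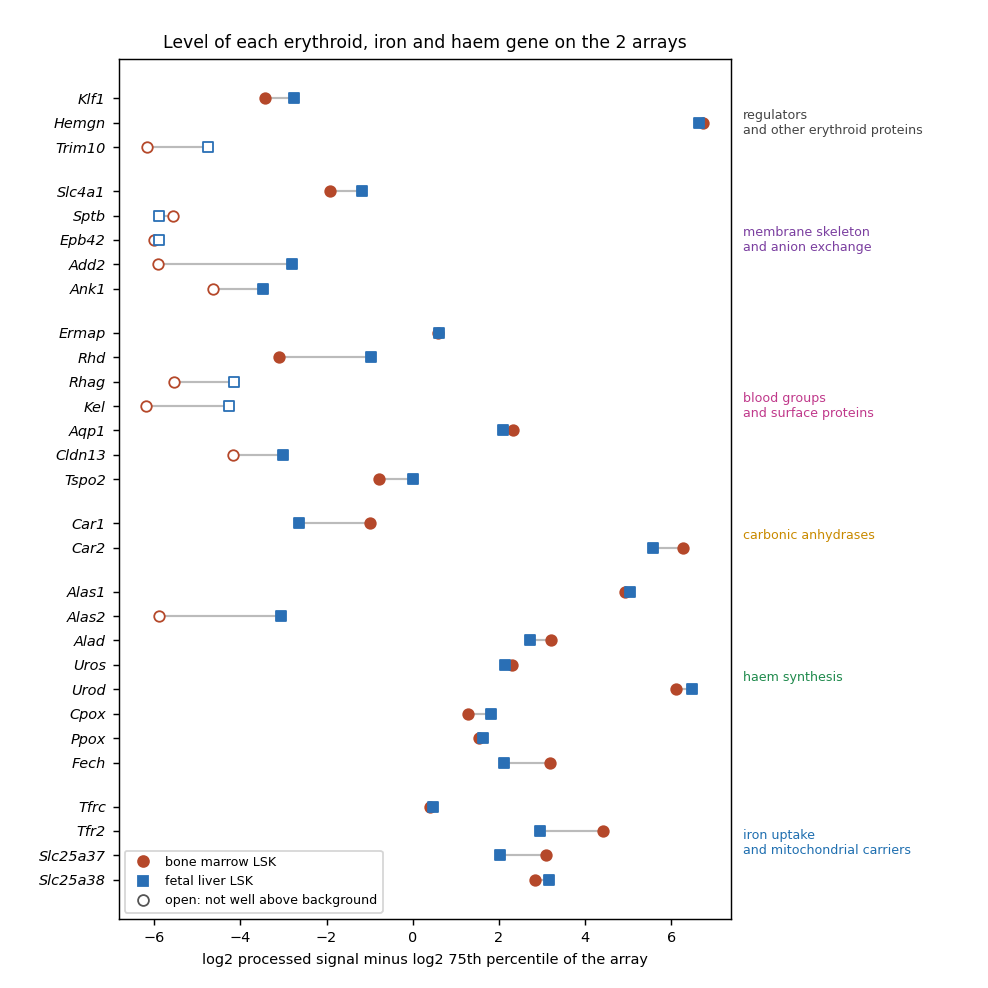
Log2 level of each of the 29 genes relative to the array's 75th percentile (x axis), with circles for bone marrow LSK, squares for fetal liver LSK and open symbols for probes not well above background; each symbol is 1 array. Symbols are to be compared within a row: Rhd lies to the right in fetal liver (-0.97 against -3.11), while Car1, Fech, Tfr2 and Slc25a37 lie to the right in bone marrow.

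Among the regulators and other erythroid proteins, none of the measured genes differed 2-fold. Klf1, the transcription factor that drives the erythroid programme, was close to background on both arrays, at -3.43 in bone marrow against -2.75 in fetal liver. Its difference of 0.68 ± 0.38 was less than 2 technical errors from 0. Hemgn, a nuclear protein of blood-forming cells, stood at 6.74 in bone marrow and 6.65 in fetal liver (-0.09 ± 0.20). The arrays differed for Hemgn by less than the technical error. Trim10, a RING finger protein of terminal erythroid cells, had signals of 2.48 and 4.95, neither well above background.

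The membrane skeleton genes of this group were dim throughout. Slc4a1, the anion exchanger of the red cell membrane, was the only skeleton-linked gene of the group above background on both arrays, with levels of -1.92 (bone marrow) and -1.18 (fetal liver), 1.67-fold higher in the latter (0.74 ± 0.23). Add2, the beta subunit of adducin, had a fetal liver signal of 19.1 against 2.97 in bone marrow, where it was not well above background, which gives at least 2.07-fold. Ank1, erythroid ankyrin, had signals of 12.0 and 7.24, a bound of at least 1.30-fold. Sptb, erythroid beta-spectrin, and Epb42, which binds the anion exchanger, were not well above background on either array, with signals between 2.25 and 3.80. Every measured gene of this set therefore pointed to fetal liver, but 2 of the 3 could only do so.

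Rhd, the Rh blood group protein, showed the largest difference of the measured members under the main scaling. Under spike-in scaling Car1 (-1.99) exceeded it in size (1.80 for Rhd), and under normexp Tfr2, Fech and Slc25a37 did. Its level was -3.11 in bone marrow and -0.97 in fetal liver, 4.39-fold higher in fetal liver (2.13 ± 0.28), from signals of 20.8 and 68.3. Only 1.47% of all measured genes had a higher difference. Rhag, the Rh-associated glycoprotein that carries Rh proteins to the surface, stayed near background on both arrays (3.87 and 7.61, neither well above it), nor was Kel, the Kell blood group protease (2.47 and 6.95). Rhd is read by a single dim probe, and normexp background correction brought its difference to 0.93.

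None of the other surface proteins was counted past 2-fold by its brightest probe, though Cldn13 gives only a bound. Tspo2, an erythroid relative of the translocator protein, was at -0.79 in bone marrow and 0.02 in fetal liver (0.81 ± 0.21). Cldn13, a claudin of mouse erythroid cells, had a signal of 16.8 in fetal liver against 9.90, not well above background, in bone marrow, at least 1.81-fold higher in fetal liver. Aqp1, the water channel of red cells, was at 2.32 and 2.11 (-0.22 ± 0.20). Ermap, the Scianna blood group protein, was at 0.59 and 0.60 by its brightest probe (0.01 ± 0.21). A dim probe of Ermap gave a bound of 1.16 towards fetal liver from a signal of 20.7, and the third was not well above background, so the probes of this gene disagree.

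The promoter windows of 5 genes are shown here. Rhd, Add2 and Tfr2 passed 2-fold and had a promoter entry, Tfrc is the paralog of Tfr2, and Alas2 is the erythroid paralog of Alas1. Windows of Car1, Fech and Slc25a37 were not used here. Each window holds the 250 bases before the most upstream RefSeq start of the gene in GRCm38.p6, on the plus strand, at chr4:134864286-134864535 for Rhd, chr6:86028431-86028680 for Add2, chr5:137569590-137569839 for Tfr2, chr16:32608646-32608895 for Tfrc and chrX:150547167-150547416 for Alas2. Capitals mark AGATAA, the letters that GATA factors bind, and CCNCNCCC, the CACCC-type letters that Klf factors bind, on either strand.
Rhd: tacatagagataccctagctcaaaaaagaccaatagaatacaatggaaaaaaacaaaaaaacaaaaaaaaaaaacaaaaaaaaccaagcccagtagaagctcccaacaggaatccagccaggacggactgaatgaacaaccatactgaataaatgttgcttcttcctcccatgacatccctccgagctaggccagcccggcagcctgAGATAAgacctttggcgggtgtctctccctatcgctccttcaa
Add2: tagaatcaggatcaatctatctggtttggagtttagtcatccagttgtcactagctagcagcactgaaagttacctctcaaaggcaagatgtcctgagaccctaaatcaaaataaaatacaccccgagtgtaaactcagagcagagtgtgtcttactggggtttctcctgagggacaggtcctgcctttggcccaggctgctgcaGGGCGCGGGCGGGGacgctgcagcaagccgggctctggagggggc
Tfr2: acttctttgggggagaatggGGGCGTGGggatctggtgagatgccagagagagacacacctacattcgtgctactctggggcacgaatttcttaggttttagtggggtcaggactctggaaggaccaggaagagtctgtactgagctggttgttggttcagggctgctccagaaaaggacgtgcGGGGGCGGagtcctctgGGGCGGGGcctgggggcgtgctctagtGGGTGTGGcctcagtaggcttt
Tfrc: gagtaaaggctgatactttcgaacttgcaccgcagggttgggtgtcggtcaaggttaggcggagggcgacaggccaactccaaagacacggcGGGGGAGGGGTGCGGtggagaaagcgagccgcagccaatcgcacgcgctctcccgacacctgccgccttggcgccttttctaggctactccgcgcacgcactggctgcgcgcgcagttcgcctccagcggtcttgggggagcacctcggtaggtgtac
Alas2: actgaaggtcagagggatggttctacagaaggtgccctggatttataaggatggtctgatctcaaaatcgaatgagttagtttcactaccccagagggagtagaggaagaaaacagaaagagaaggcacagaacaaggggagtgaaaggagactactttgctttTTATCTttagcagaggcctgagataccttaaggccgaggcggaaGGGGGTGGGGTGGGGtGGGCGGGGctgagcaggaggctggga

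In the Rhd window the AGATAA match lies 43 to 38 bases before the start, on the plus strand, and there is no CCNCNCCC match. The Tfr2 window has 4 CCNCNCCC matches and the Tfrc window 3, all on the minus strand and neither with AGATAA. The Alas2 window has both, with the AGATAA match 86 to 81 bases before the start on the minus strand and 4 CCNCNCCC matches nearer to it. Matches of CCNCNCCC overlap each other in the Add2, Tfrc and Alas2 windows, and none overlaps an AGATAA match there. Of the 22 genes of the group with a promoter entry, 5 (22.7%) had AGATAA and 12 (54.5%) had CCNCNCCC, against 10.2% and 45.6% of the 27025 genes with a promoter entry. The 5 were Alas2, Epb42, Kel, Rhd and Trim10, of which Rhd was above background in both tissues and Alas2 in fetal liver. These are letter matches in one window, not measured sites.

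Both carbonic anhydrases of the group were higher in bone marrow. Car1, the erythroid isozyme that hydrates carbon dioxide in red cells, stood at -0.98 in bone marrow and -2.64 in fetal liver, 3.15-fold higher in bone marrow (-1.66 ± 0.25). Its other probe, above background in bone marrow alone, gave a bound of -1.71 in the same direction. Car2, a widely expressed isozyme, was at 6.27 and 5.58, 1.61-fold higher in bone marrow (-0.68 ± 0.20). For Car1, normexp correction brought the difference to -0.51, and of all measured genes 3.72% had a lower difference than its main value.

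The haem enzymes, taken in the order of the pathway, lay within 2-fold as measured, apart from the last step, while Alas2 gives only a bound. Alas1, the synthase that all cells use for the first step, was at 4.93 in bone marrow and 5.05 in fetal liver (0.13 ± 0.20), and its dimmer probe gave -0.17 ± 0.21. Alas2, the erythroid synthase, had a signal of 16 in fetal liver and 3.01, not well above background, in bone marrow, at least 1.73-fold higher in fetal liver. Alad, which joins aminolevulinate into porphobilinogen, was at 3.21 and 2.73 (-0.49 ± 0.20).

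Uros, the uroporphyrinogen synthase, was at 2.30 and 2.15 (-0.15 ± 0.20). Urod, the decarboxylase, was at 6.11 and 6.48 (0.37 ± 0.20). Cpox, the coproporphyrinogen oxidase, was at 1.27 and 1.81 (0.53 ± 0.20). Ppox, the protoporphyrinogen oxidase, was at 1.55 and 1.63 (0.08 ± 0.20). These middle enzymes lay on both sides of 0, all under 2-fold.

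Fech, the ferrochelatase that puts iron into the ring, was the 1 haem enzyme past 2-fold. Its level was 3.18 in bone marrow and 2.12 in fetal liver, 2.09-fold higher in bone marrow (-1.07 ± 0.20). The value lies just past 2-fold, closer to that threshold than 1 technical error. Under the alternatives it ranged from -1.40 to -1.06.

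**Figure D2:**
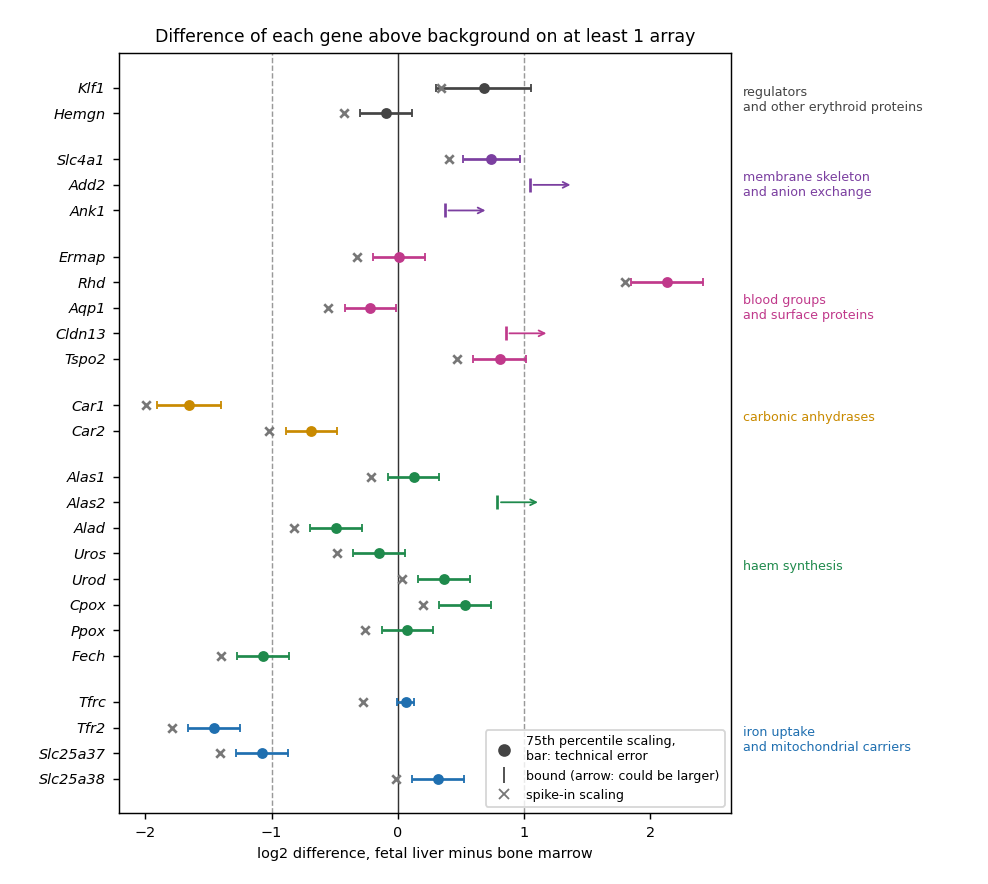
Log2 difference, fetal liver minus bone marrow (x axis), of the 24 genes above background on at least 1 array; points with bars are the difference and its technical error, ticks with arrows are bounds, crosses are the same difference under spike-in scaling, and dashed lines mark 2-fold. Rhd lies at 2.13 on the fetal liver side, and Car1, Tfr2, Slc25a37 and Fech lie past 2-fold on the bone marrow side, under both scalings.

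In iron uptake, Tfr2 passed 2-fold and its paralog Tfrc did not. Tfrc, the main receptor for transferrin-bound iron, was read by a probe printed as 10 spots. Those spots ranged from 0.27 to 0.55 for bone marrow (mean 0.40, SD 0.09 over 10 spots) and from 0.35 to 0.61 for fetal liver (mean 0.46, SD 0.08 over the 9 spots kept). The spots of the arrays overlapped, and the difference of 0.06 was smaller than the spread between spots of 1 array. The other Tfrc probes gave -0.81 ± 0.21 and -0.45 ± 0.30, so the probes disagree by more than their technical error.

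Tfr2, a receptor that senses transferrin and associates with the erythropoietin receptor, stood at 4.41 in bone marrow and 2.96 in fetal liver. That is 2.74-fold higher in bone marrow (-1.46 ± 0.20), from signals of 3814 and 1042, and 4.81% of all measured genes had a lower difference. The difference exceeds its technical error, but that error measures no spread between animals, and its median over genes measured on both arrays was also 0.20. Over the alternatives the difference ranged from -1.79 to -1.46.

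Slc25a37, mitoferrin, which brings iron into the mitochondrion, was at 3.10 in bone marrow and 2.02 in fetal liver, 2.11-fold higher in bone marrow (-1.08 ± 0.20). Its dimmer probe gave -1.25 ± 0.23, in the same direction. Slc25a38, the mitochondrial glycine carrier that feeds the first step of haem synthesis, was at 2.84 and 3.16 (0.32 ± 0.20). Slc25a37 and Fech were thus both about 2-fold higher in bone marrow, while the glycine carrier and the first enzyme, Alas1, were not. By their brightest probes both lie closer to that threshold than 1 technical error. Slc25a28, the other mitoferrin and 1 of the companion iron genes, was 1.34-fold higher in bone marrow (-0.43 ± 0.20).

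**Figure D3:**
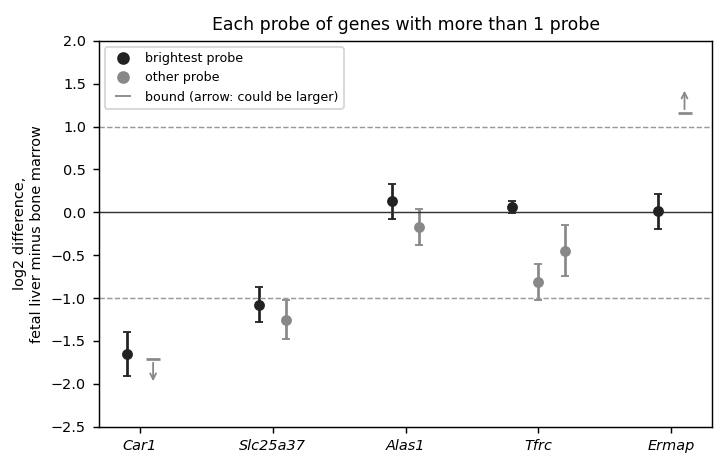
Log2 difference, fetal liver minus bone marrow (y axis), of each probe above background on at least 1 array for the 5 genes with more than 1 probe; bars are technical errors, black is the brightest probe, grey the others, and horizontal ticks with arrows are bounds. Both probes of Car1 and of Slc25a37 lie below -1, while those of Tfrc (0.06, -0.45 and -0.81) and Ermap are spread.

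**Figure D4:**
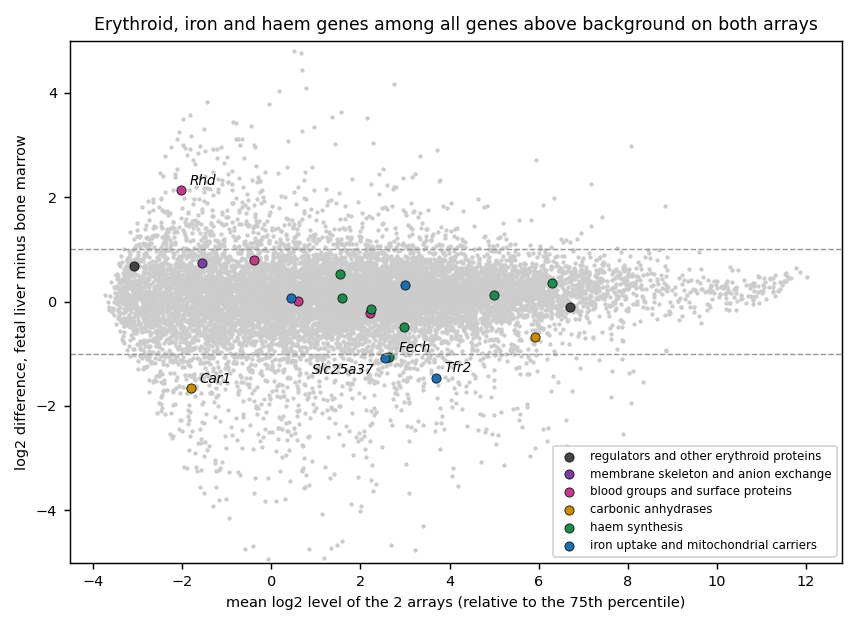
Log2 difference, fetal liver minus bone marrow (y axis), against the mean log2 level of the arrays (x axis) for the 12251 genes above background on both arrays (grey; 15 lie outside the plotted range) and for the 20 erythroid, iron and haem genes among them, coloured by role. Rhd and Car1 lie in the dim part of the plot where the grey cloud is wide, and Tfr2, Fech and Slc25a37 lie at brighter levels.

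Markers of erythroid cells are given beside these values because the sort could still hold a few maturing erythroid cells. Of 8 markers, 6 were above background on both arrays. The summed level of the markers, in units of the 75th percentile, was 229 in bone marrow and 931 in fetal liver. Hbb-bt, an adult beta-globin gene, had levels of 6.57 and 9.56. Hemgn, one of the genes described above, is also among these markers and is the 1 measured marker that did not pass 2-fold. Its levels of 6.74 and 6.65 are part of both sums, so the sums do not stand for late cells alone. Fetal liver was at least 2-fold higher for 5 of the 6, where 6.76% of all measured genes were. The 5 were the globin genes Hbb-bt, Hbb-bs, Hba-a1 and Hba-a2, which share near-identical copies, and Epor. Their part in the values above was not tested.

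Markers of other cell types are given in the same way. Of 8 hepatocyte markers, 5 were measured, with a summed level of 83.5 in bone marrow against 38.4 in fetal liver, and Alb, Ttr and Apoa1 were not well above background on either array. Trf, also a companion iron gene, makes up most of both sums (levels of 6.12 and 4.85), so they do not stand for hepatocytes. Apoa2 (0.24) and Serpina1a (0.75) differed by less than 2-fold, towards fetal liver. Of 8 macrophage markers matched, 5 were measured, with summed levels of 28.2 and 34.3, and Cd163, C1qa and Siglec1 were not well above background. Csf1r makes up most of both macrophage sums (levels of 4.78 and 5.08). All 7 megakaryocyte markers (47.8 and 61.6) and all 7 neutrophil markers (134.8 and 110.5) were measured. Bone marrow was at least 2-fold higher for 3 of the megakaryocyte, 4 of the neutrophil, 3 of the measured hepatocyte and 1 of the measured macrophage markers, where 8.14% of all measured genes were. Fetal liver was at least 2-fold higher for 1 megakaryocyte marker (Gp9) and 1 macrophage marker (Cd5l), where 6.76% of all measured genes were. Of these calls towards either tissue, Cd5l, Vcam1, Fgb and Retnlg are bounds. Under normexp, Cd5l (0.46), Vcam1 (-0.26), Fgb (-0.49) and Gp1bb (-0.56) fell short of 2-fold. Cd5l also did so under spike-in scaling (0.76). Their part in the results was not tested.

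The regulators that act on these genes were described from a list of 26. Of its 25 measured members, 1 (4.0%) passed 2-fold towards each tissue, and the median was -0.22. Over all measured genes 6.76% passed towards fetal liver and 8.14% towards bone marrow. Epor, the erythropoietin receptor, stood at -0.23 in bone marrow and 1.21 in fetal liver, 2.71-fold higher in fetal liver (1.44 ± 0.21). Lmo2, a bridging subunit of the GATA complex, was at 7.39 and 6.30, 2.12-fold higher in bone marrow (-1.09 ± 0.20). Gata1 (-0.49 ± 0.20) and Gata2 (-0.67 ± 0.20), the erythroid and the stem cell GATA factors, were higher in bone marrow by less than 2-fold.

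Other membrane skeleton and blood group genes numbered 33, of which 25 were measured, with a median of 0.09. Past 2-fold towards fetal liver were 3 (12.0%, against 6.76% of all measured genes) and towards bone marrow 4 (16.0%, against 8.14%). Towards fetal liver lay Xk, the partner of the Kell protein (1.53 ± 0.26, its other probe a bound of 0.61), Bcam, the Lutheran protein, 2.82-fold, and Slc2a1, the glucose transporter (1.15 ± 0.20). Towards bone marrow lay Icam4, an erythroid adhesion molecule, 6.20-fold (-2.63 ± 0.21), and Slc14a1, the Kidd urea transporter, 4.71-fold (-2.24 ± 0.20). Car3, a carbonic anhydrase (-1.95 ± 0.21), and Stom, stomatin (-1.13 ± 0.21), lay on that side too. Some of these calls depend on the processing: Xk was at 0.78 and Stom at -0.93 under normexp correction, and Slc2a1 was at 0.81 under spike-in scaling.

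Other haem genes numbered 30, of which 29 were measured, and their median was 0.07. Each tissue had 3.45% of them at least 2-fold higher, against 6.76% (fetal liver) and 8.14% (bone marrow) of all measured genes. The 1 gene at least 2-fold higher in fetal liver was Abcb6, a porphyrin transporter, at 1.02 ± 0.21, a value that falls to 0.68 under spike-in scaling. The 1 gene at least 2-fold higher in bone marrow was Isca1, which assembles iron-sulphur clusters, 2.88-fold (-1.52 ± 0.20), with its other probe at -1.16.

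Other iron genes numbered 31, of which 19 were measured, with a median of -0.31. Past 2-fold towards fetal liver were 0 (against 6.76% of all measured genes) and towards bone marrow 2 (10.5%, against 8.14%). Lcn2, the siderophore-binding lipocalin of neutrophils, was 5.54-fold higher in bone marrow (-2.47 ± 0.21), and Trf, transferrin, 2.41-fold (-1.27 ± 0.20). Trf is also among the hepatocyte markers. Of the 7 neutrophil markers, 4 passed 2-fold towards bone marrow, the side of Lcn2 (Chil3, Retnlg, Ngp and Camp), while S100a8 (0.15), S100a9 (-0.26) and Ltf (-0.31) were under 2-fold. Fth1, the ferritin heavy chain, was under 2-fold (-0.92 ± 0.20).

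**Figure D5:**
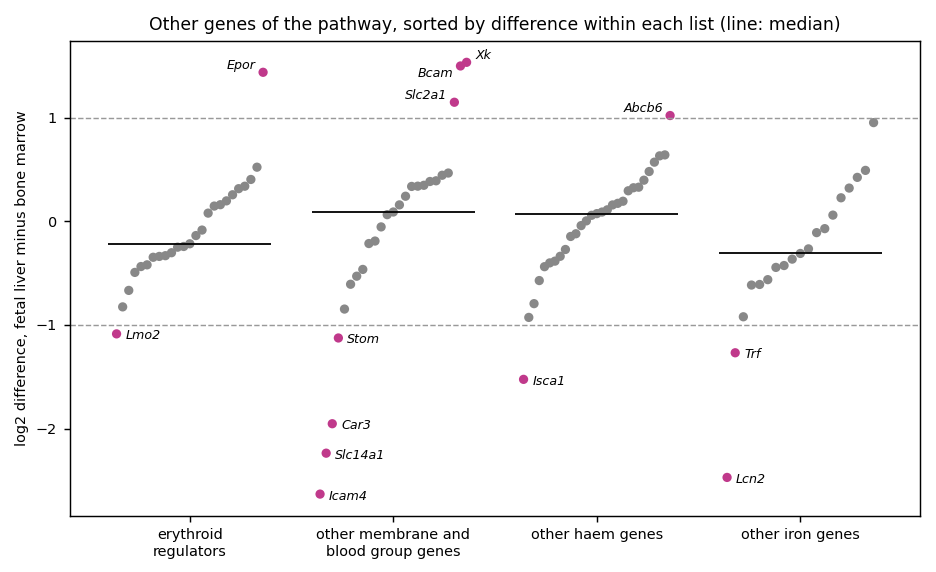
Log2 difference, fetal liver minus bone marrow (y axis), of the measured genes of 4 companion lists (x axis), sorted within each list; each point is a gene, coloured and named where it differs at least 2-fold, and the black line is the list's median. The medians are -0.22, 0.09, 0.07 and -0.31, with Icam4 (-2.63) and Lcn2 (-2.47) the lowest points and Xk (1.53) the highest.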

How the data were processed

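Total RNA of sorted cells (20 ng, with a 1-colour spike-in mix) was amplified and labelled with Cy3, per the labels' protocols. Per the file headers, Agilent Feature Extraction 10.7.1.1 produced the deposited intensity per spot, a linear signal after background subtraction that is not scaled between arrays. Other deposited columns used, per the file headers, were the signal error, the median spot and background intensity, and flags of 0 or 1. The authors' deposited value table holds a linear ratio, which matched the processed signal over a constant of each array (178.6 and 133.9) within 0.1% for 99.99% of single-spot probes. Its column medians were 0.0589 and 0.0604, and the sources used here do not say how the constants were chosen.

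Outlier spots (137 and 122) were left out, no spot was saturated, and spots of a probe were averaged. Levels were log2 signals minus each array's 75th percentile (178.9 and 134.0). A gene took its probe with the highest mean scaled signal. Of 55664 probes on both arrays, 27226 were named through RefSeq accessions (GRCm38.p6 gene table, names and gene order only, since the array design uses mm9). Promoter letters are RefSeq's (GRCm38.p6). Where 1316 promoter windows of opposite strands overlapped, all 1316 were reverse complements. Over 224 repeated probes, single spots gave an SD of 0.17 for a log2 difference, which is technical only, and the number of arrays limits the precision. Of the spike-in mix, 8 of 10 controls passed background (SD 0.19 of their log2 difference). Scripts used Python 3.11.15 and limma 3.58.1 (normexp, offset 50, on the median spot signal rather than the mean) and were tested on simulated data.

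The members and the gene lists were chosen with earlier results of these data known. All members are given. From the 4 companion lists (regulators, other membrane and blood group, other haem, other iron genes), genes at least 2-fold different are named, plus Gata1, Gata2 and Epor whatever their value. Some genes of that rule are not reported here. Fth1, Slc25a28 and single genes of the cell type marker lists were named after their values were seen.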

Additional observations from a re-analysis of the deposited data

How the results depend on the processing

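The members past 2-fold towards bone marrow, 4, numbered 3 to 5 under every alternative tried: Tfr2, Slc25a37 and Fech kept their direction and stayed past 2-fold in each, and Car1 fell short under normexp (-0.51). The count at least 2-fold higher in fetal liver was 2 of 24. It was 1 of 24 under spike-in scaling and 1 of 24 under the 75th percentile of probes above background on both arrays. When genes had to be above background on both arrays it was 1 of 20. Under normexp it was 0 of 24, with Rhd at 0.93 and Add2 at 0.49. It was 5 of 24 with no bounds and 8 of 29 with no filter on dim probes. Both settings take signals not well above background at face value. With a 1.5-fold threshold the counts were 7 and 5. Quantile normalization, the authors' value table and the mean over probes left both counts as they were. The authors' table holds the same signal over constants (178.6 and 133.9) close to the 75th percentiles (178.9 and 134.0). Its match was therefore set in advance and is no separate check. The members' median was -0.23 under spike-in scaling, as that of all genes was, and between 0.02 and 0.20 under the others. Over all 13383 genes the 2-fold counts towards fetal liver and bone marrow were 379 and 607 under normexp, and 1086 and 1284 with no bounds. They were 774 and 1223 under the 75th percentile of probes above background on both arrays, and 850 and 1142 under quantile normalization. At 1.5-fold they were 2355 and 1992. With no filter they were 1693 and 1654 of 20655, and 705 and 839 of 12251 with both arrays above background. The mean over probes gave 866 and 1082 of 13384. No member past 2-fold reversed its direction under any alternative tried. Dim probes set the limit: of the 6 calls, Rhd, Add2 and Car1 rest on signals under 100 on both arrays. No paired analysis was possible because each group has 1 array, and no replicate could be left out.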

Other observations

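The carbonic anhydrase genes Car13, Car1, Car3 and Car2 lie next to each other in that order in the reference gene table, and all were lower in fetal liver. Car13 stood at -0.84 in bone marrow and -1.92 in fetal liver (-1.09 ± 0.23), Car3 at 0.92 and -1.03 (-1.95 ± 0.21), and Car1 and Car2 differed by -1.66 and -0.68 as given above. Under normexp Car13 was at -0.54 and Car3 at -1.21. The next gene beyond Car13, Rbis, went the other way (0.88 ± 0.20). Car4, a membrane-bound relative in one of the companion lists, differed by 0.38 ± 0.20. These neighbours were looked up after the values of Car1 were seen. The genes are paralogs, and cross-hybridisation between their probes was not tested.

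Around the other members past 2-fold, the nearest measured neighbours stayed under 2-fold, apart from Fam136a near Add2 (1.11 ± 0.20). Next to Rhd, Maco1 was at 0.07 and Tmem50a at -0.49. Next to Tfr2, Mospd3 was at -0.09, and next to Fech, Nars was at 0.07.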
